A study of Mus musculus with 10 samples.

Results

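Germinal center B cells are recognised by the sugars on their surface, and the transcripts of 10 genes that build those sugars were followed here in mouse B cells lacking ZBTB38. The 10 genes, Cmah, St6gal1, St3gal1, St3gal2, St3gal4, St3gal6, Gcnt1, Mgat5, C1galt1 and Cmas, were chosen by name as the enzymes behind GL7 and PNA staining, and all 10 were found among the 22380 genes measured. ZBTB38 is a zinc finger protein of the BTB family that binds methylated CpG. The study asked whether its loss changes gene expression in germinal center B cells. RNA was sequenced from 10 libraries of sorted cells, each given as a separate mouse.

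The groups were 2 ZBTB38 WT, 2 ZBTB38 HET and 6 ZBTB38 KO libraries, all labelled C57Bl6/N. WT mice carried floxed Zbtb38 on both alleles without Cre, HET mice carried 1 floxed allele with Vav-Cre, and KO mice carried floxed alleles on both chromosomes with Vav-Cre. Vav-Cre is active throughout hematopoietic cells and not only in B cells, and WT mice therefore differed from the other groups in Cre as well. The floxed line descends from 1 founder. Ages and sexes were not given in the sources used here. The labels call the mice untreated, whereas the study's methods describe immunization with NP-OVA and sorting of NP-binding GL7+IgD- B cells 2 weeks later, after magnetic enrichment with GL7. The same GL7 gate was applied to every genotype, so cells that had lost the GL7 epitope were not sampled.

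GL7 is an antibody to sialic acid of the Neu5Ac type in an α2,6 linkage to lactosamine. CMAS activates sialic acid to CMP-Neu5Ac, and ST6GAL1 places it on galactose; CMAH oxidises CMP-Neu5Ac to CMP-Neu5Gc, a form that GL7 does not bind, and mouse germinal center B cells are known for low Cmah. The lectin PNA binds the bare core 1 disaccharide of O-glycans, which C1GALT1 makes. ST3GAL1 and ST3GAL2 cap core 1 with sialic acid, GCNT1 branches it to core 2, ST3GAL4 and ST3GAL6 cap lactosamine, and MGAT5 adds a branch to N-glycans.

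The deleted gene was examined first. Levels between libraries are given as CPM, the counts divided by library size after scaling by the trimmed mean of M values. Zbtb38 was at 162 and 152 CPM in WT and at 117 and 106 CPM in HET, and between 18.6 and 50.3 CPM, with a median of 30.3, in KO. Every KO library was below every WT and HET library, as the labels give them. In TPM the gap was narrower: KO replicate 2 was at 46.1 TPM, the other KO libraries at 17.5 to 23.7 TPM and the 2 HET libraries both at 49.6 TPM. WT plus HET exceeded KO by a log2 fold change of 2.08 ± 0.23 (SE; adjusted p = 0.0104). It was 2.31 ± 0.27 for WT over KO (adjusted p = 0.0734), 1.82 ± 0.26 for HET over KO (adjusted p = 0.128) and 0.49 ± 0.35 for WT over HET (adjusted p = 0.873). The threshold was an adjusted p of 0.1. The call for WT over KO was lost without WT replicate 1 or 2 (2.26 and 2.36) or without KO replicate 1, 3, 4 or 5 (2.26, 2.34, 2.32 and 2.27), with adjusted p from 0.26 upward, and with the Y-linked level as a covariate (2.17, adjusted p = 0.519). Both calls were lost with limma on log2(TPM + 1) (1.34 and 1.16, adjusted p = 0.662 and 0.686 for WT and for WT plus HET) and with counts scaled by transcript length (1.20 and 1.04), each of which moved the value by more than 1.5-fold. They were lost with a block for the replicate number too (adjusted p = 0.111 and 0.601). Without KO replicate 2 or 6, HET over KO passed (adjusted p = 0.0197 and 0.0505). In a fit of the WT and HET libraries alone, WT over HET passed, at 0.50 ± 0.12 (adjusted p = 0.0877). Only exon 3 of Zbtb38 is floxed. The counts are sums over the whole gene, so they do not show which exons the remaining reads in KO come from. The study aligned the reads to the genome and reported that transcripts of the floxed exon were completely lost in KO and intermediate in HET. Those alignments were not repeated here.

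Library depth ran from 26612431 to 41059082 estimated counts. KO replicate 6 stood apart from the rest: its first principal component score was 79.3, against 0.733 for the next highest library, and it correlated with the rest at a median of 0.954, against 0.971 to 0.983. It also had counts in the fewest genes, 13886. The B cell genes Cd79a and Cd79b and the germinal center genes Mef2b and Bcl6 were present in every library. In CPM, KO replicate 6 was lowest for 6 of the 8 germinal center markers, but not for Fas or Rgs13. Among the 6 were Mef2b (275 CPM, against 364 to 716 in the others) and Bcl6 (169 CPM, against 190 to 294). Mef2b was higher in HET, at 471 and 492.7 CPM, than in WT, at 436 and 395 CPM. Bcl6 was also higher in HET, at 278 and 294 CPM, than in WT, at 232 and 247 CPM. The summed TPM (length-corrected abundance, with the same total in every library) of 8 naive B cell markers was highest in KO replicate 6, at 870.7. They summed to 664 and 774 TPM in WT, to 331 and 367 TPM in HET, and to 379 TPM in KO replicate 1, and none was under 1 TPM in any library. Their most abundant gene was Fcer2a, except in KO replicate 6, where it was Ighd. The 8 germinal center markers summed to 1188 TPM in KO replicate 6, against 1722 to 2437 TPM in the other libraries.

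Other cell types left traces as well. The 7 myeloid markers, led by Lyz2 in most libraries, summed to 653 and 533 TPM in WT, 91.0 and 90.1 TPM in HET, and 85.2 to 931 TPM in KO. The 8 T cell markers summed to 239 and 230 TPM in WT, 144 and 149.5 TPM in HET and 129 to 185 TPM in KO; Lck was the most abundant in every library, and Trac was at 47.75 and 42.9 TPM in WT, 7.15 and 9.32 TPM in HET and 9.52 to 29.5 TPM in KO. The 7 plasma cell markers, mostly Jchain, summed to 2076 and 1807 TPM in WT, 1650 and 1596 TPM in HET and 1677 to 2244 TPM in KO. The lowest KO sum was that of replicate 6, which in CPM was the highest library for 4 of the 7 and the lowest for 1. The 5 erythroid markers, led by Hbb-bt, summed to 133 and 187 TPM in WT, 114 and 103.8 TPM in HET and 175.5 to 257 TPM in KO, with Alas2 under 1 TPM in every library. The 4 Y-linked genes measured summed to 109.8 and 156 TPM in WT but to 0.640 and 0.487 TPM in HET, and in KO to 88.85, 145 and 129 TPM in replicates 1, 2 and 5 and 0.917, 1.77 and 1.44 TPM in replicates 3, 4 and 6. WT and HET thus cannot be told apart from the sexes of their mice. The part of these differences in the results below was not tested except where a value is given, and in bulk RNA fewer cells of a type cannot be told apart from less RNA per cell.

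The 10 genes spanned a wide range of levels, compared between genes in TPM, which accounts for transcript length. St6gal1 was highest, with a mean of 104.8 ± 24.4 TPM (SD, n = 10), and lay at the 87.2 percentile of the genes tested. Cmas followed at 58.5 ± 9.42 TPM. St6gal1 was above Cmas, and Cmas above C1galt1, in all 10 libraries. C1galt1 (23.8 ± 5.88 TPM), St3gal6 (23.5 ± 9.09 TPM) and Cmah (22.8 ± 8.37 TPM) did not differ beyond their spread, with C1galt1 above St3gal6 in 5 of 10 libraries. Gcnt1 (10.3 ± 2.63 TPM), St3gal2 (9.81 ± 3.03 TPM) and St3gal1 (9.63 ± 4.37 TPM) formed a lower tier that could not be ordered either. St3gal4 (5.48 ± 5.83 TPM) and Mgat5 (1.86 ± 0.559 TPM) were lowest.

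**Figure D1:**
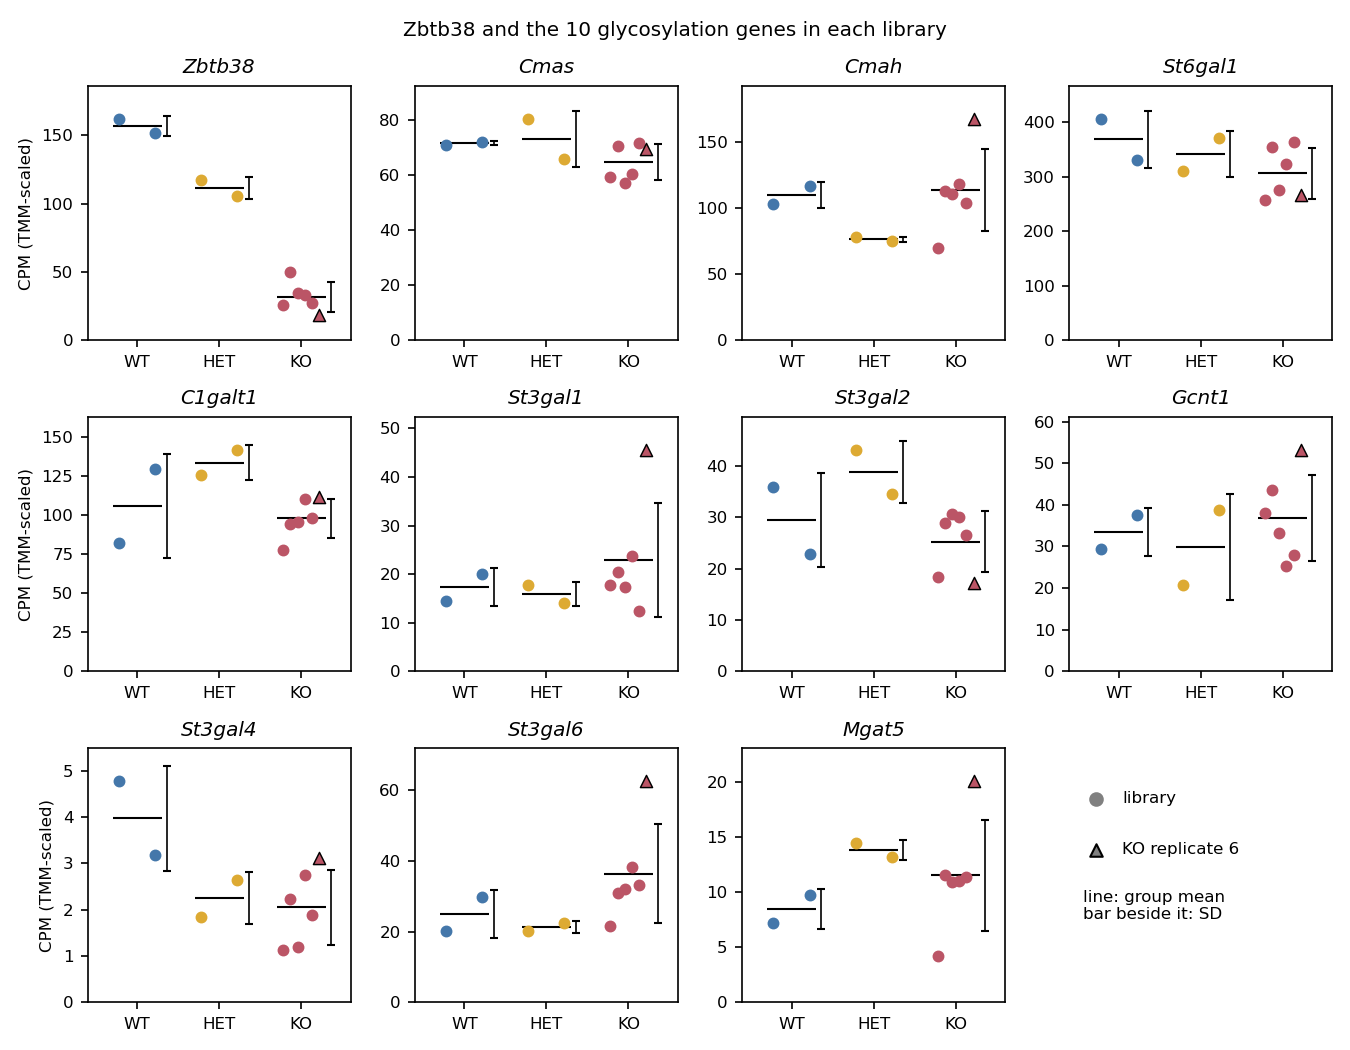
CPM of Zbtb38 and of the 10 glycosylation genes in each library by genotype, 1 point per library, with the group mean as a line and the SD as a bar beside it; the triangle is KO replicate 6. Zbtb38 separates KO from the other groups, whereas KO replicate 6 is the highest library for Cmah (167 CPM), St3gal1 (45.5 CPM) and St3gal6 (62.5 CPM).

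Among the genes of the GL7 epitope, Cmas was the steadiest. It was at 70.9 and 72.05 CPM in WT, 80.15 and 65.9 CPM in HET, and 56.9 to 71.4 CPM (median 64.9) in KO. The groups overlapped. WT over KO gave a log2 fold change of 0.15 ± 0.15 (SE; adjusted p = 0.999). Its spread within KO, an SD of 0.144 on the log2(CPM + 1) scale, was at the 7.44 percentile of all genes tested. St6gal1, the sialyltransferase that completes the epitope, was at 405.5 and 332 CPM in WT, 311 and 372 CPM in HET, and 257 to 363 CPM (median 299) in KO. KO replicates 1 and 6 were the lowest libraries and WT replicate 1 the highest, and the groups overlapped. WT over KO came to 0.26 on the log2 scale, with a 95% interval from -0.11 to 0.64 (adjusted p = 0.999). HET over KO was 0.15 ± 0.16 (SE; adjusted p = 0.765). With 1 library left out these ranged from 0.11 to 0.40 and from 0.02 to 0.28.

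Cmah, which competes with the epitope for its donor, varied more. It was at 103 and 117 CPM in WT, 78.0 and 74.9 CPM in HET, and 70.1 to 167 CPM (median 112) in KO. Both HET libraries and KO replicate 1 were low, KO replicate 6 was highest, and the other 4 KO libraries lay with WT. The log2 fold change was -0.05 ± 0.25 for WT over KO (SE; adjusted p = 0.999), with an interval from -0.61 to 0.51, and 0.09 ± 0.20 without KO replicate 6 (adjusted p = 0.994). It was -0.57 ± 0.25 for HET over KO (unadjusted p = 0.0401, adjusted p = 0.469), and -0.44 ± 0.19 without KO replicate 6 (adjusted p = 0.429). WT was above HET in both libraries of each, by 0.52 ± 0.30 (adjusted p = 0.816). That difference passed the threshold only in a fit of the WT and HET libraries alone, at 0.53 ± 0.13 (adjusted p = 0.0933), in which 523 of all genes passed.

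The order of Cmah followed that of the naive B cell markers at its ends. The 3 libraries with the lowest summed naive markers, both HET libraries and KO replicate 1, were the 3 lowest for Cmah, and KO replicate 6 was highest for both. For each other member, 1 or 2 of those 3 libraries were among its 3 lowest. In CPM, KO replicate 6 was highest for 7 of the 8 naive markers and for 20.1% of all genes tested. The exception, Fcer2a, was at 254.6 CPM there, against 327 CPM in KO replicate 4. Cmah is itself higher in naive than in germinal center B cells, as background. The part of the naive transcripts in the Cmah levels was not tested. The Y-linked level was added as a covariate after the data were seen. Cmah was then at -0.81 ± 0.26 for HET over KO (SE; unadjusted p = 0.00918, adjusted p = 0.302). It was at 0.99 ± 0.36 for WT over HET (unadjusted p = 0.0186, adjusted p = 0.464), and neither passed. Over all settings run, Cmah for HET over KO ranged from -0.81 to -0.23 and passed in none.

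The TPM ratio of Cmah to St6gal1 puts the opposing steps on 1 scale within a library. It was 0.156 and 0.2545 in WT, 0.138 and 0.122 in HET, and 0.138 to 0.5085 (median 0.237) in KO. HET libraries were low, KO replicate 1 lay with them, and KO replicate 6 was highest, as for Cmah alone. In CPM, KO replicate 6 was highest as well, at 0.6285. KO replicate 1, at 0.2725 in CPM, was above both HET libraries (0.2505 and 0.2017) and WT replicate 1 (0.2543). The ratio is a description and was given no test.

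Cmah also differed in which transcripts carried the signal. Its gene lies at chr13:24327404-24477377 on the plus strand of the mm10 genome, and the authors' quantification split it over 6 transcripts. The main pair share a coding sequence of 1734 bases but start 87702 bases apart: ENSMUST00000167746 is 9727 bases long, and ENSMUST00000224657, from the downstream start, is 3124 bases long with a shorter 3' end. The long form held 7.61 and 7.63 TPM in WT, 7.33 and 6.59 TPM in HET, and 4.09 to 10.65 TPM in KO. The downstream form held 9.745 and 15.99 TPM in WT, 4.24 and 5.93 TPM in HET, and 1.68 to 23.8 TPM in KO. Another form from the upstream start, ENSMUST00000224819, held 4.403 and 4.753 TPM in WT, 2.42 and 2.45 TPM in HET, 0.700 TPM in KO replicate 1 and 2.27 to 6.29 TPM in the other KO libraries. In TPM, the low total in HET and in KO replicate 1 thus lay in the downstream form and to a lesser extent in this one. Estimated counts, not scaled for depth, do not favour the shorter form. The downstream form had 860 and 959 in WT, 287 and 347 in HET and 127 in KO replicate 1. ENSMUST00000224819 had 1238.5 and 913.6 in WT, 524.5 and 458.9 in HET and 169 in KO replicate 1. The order of the 2 forms in the low total therefore rests on the TPM scale. The downstream form's share of Cmah TPM was 30.3% and 39.6% in HET and 18.8% in KO replicate 1, against 44.8% to 64.3% in the other 7 libraries. The main pair share 3095 bases and only 29 are found in the shorter alone, so the split rests on estimation. KO replicates 1 and 6 had the shortest transcripts on average, weighted by TPM, at 1362 and 1391 bases against 1464 to 1637 bases, and the part of this in the split was not tested.

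St6gal1 (chr16:23224740-23360350, plus strand) was likewise split over ENSMUST00000023601 and ENSMUST00000178797, which start 1281 bases apart and encode the same 1212 bases. The second form held 12.75% of St6gal1 TPM in KO replicate 6 and 28.25% to 45.8% in the other 9 libraries. Its level in KO replicate 6 was 9.29 TPM, against 18.25 to 63.4 TPM elsewhere. Outside KO replicate 6 the shares overlapped between genotypes.

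**Figure D2:**
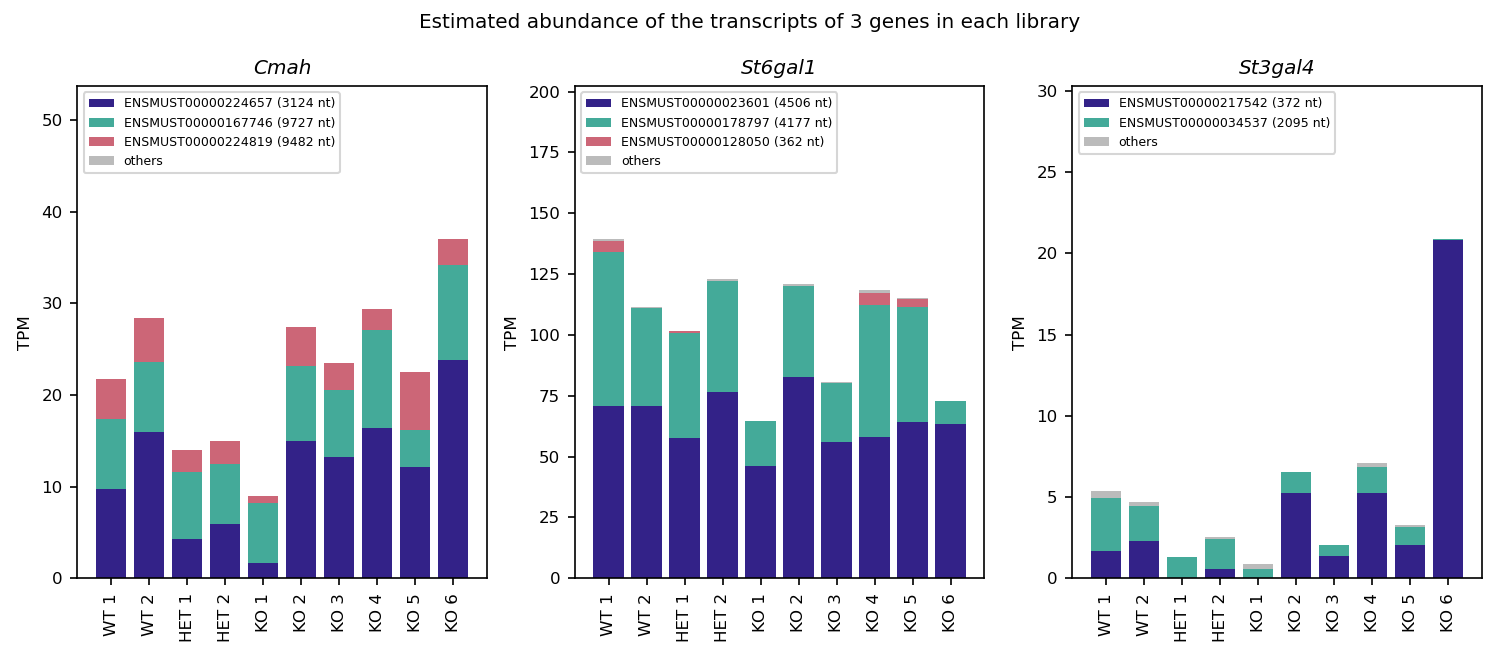
Estimated TPM of the transcripts of Cmah, St6gal1 and St3gal4 in each library, stacked so that the bar height is the gene's TPM. The downstream Cmah form is lowest in KO replicate 1 (1.68 TPM) and highest in KO replicate 6 (23.8 TPM), where the 372-base St3gal4 fragment reaches 20.8 TPM.

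The promoter windows at these starts are shown because the transcript shares differ between them and because ZBTB38 binds methylated CpG. They are taken from RefSeq, build GRCm38.p6, which gave windows for 8 of the 10 genes. CG dinucleotides, which read the same on both strands, are in capitals. The first window is placed at a start 16 bases upstream of that of ENSMUST00000167746, and the other 3 at the start of the transcript named.
Cmah, transcript ENSMUST00000167746, chr13:24327154-24327453, plus strand: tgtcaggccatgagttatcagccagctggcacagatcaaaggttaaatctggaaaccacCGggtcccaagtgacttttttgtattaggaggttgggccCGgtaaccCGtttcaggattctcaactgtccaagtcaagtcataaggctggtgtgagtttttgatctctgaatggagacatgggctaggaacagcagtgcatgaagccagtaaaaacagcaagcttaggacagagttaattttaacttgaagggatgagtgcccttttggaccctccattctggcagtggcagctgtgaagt
Cmah, transcript ENSMUST00000224657, chr13:24414872-24415171, plus strand: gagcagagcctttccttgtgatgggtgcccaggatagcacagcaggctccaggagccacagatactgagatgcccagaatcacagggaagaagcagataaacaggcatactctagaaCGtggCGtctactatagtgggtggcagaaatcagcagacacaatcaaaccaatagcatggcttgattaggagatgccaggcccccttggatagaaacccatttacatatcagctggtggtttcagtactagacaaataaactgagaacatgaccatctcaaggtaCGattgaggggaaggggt
St6gal1, transcript ENSMUST00000023601, chr16:23224490-23224789, plus strand: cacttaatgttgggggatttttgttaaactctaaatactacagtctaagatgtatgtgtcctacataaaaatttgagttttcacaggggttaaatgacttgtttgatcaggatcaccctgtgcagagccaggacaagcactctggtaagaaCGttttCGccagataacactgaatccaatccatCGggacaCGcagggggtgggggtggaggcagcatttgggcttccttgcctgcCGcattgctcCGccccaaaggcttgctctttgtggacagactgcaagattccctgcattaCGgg
St6gal1, transcript ENSMUST00000178797, chr16:23225771-23226070, plus strand: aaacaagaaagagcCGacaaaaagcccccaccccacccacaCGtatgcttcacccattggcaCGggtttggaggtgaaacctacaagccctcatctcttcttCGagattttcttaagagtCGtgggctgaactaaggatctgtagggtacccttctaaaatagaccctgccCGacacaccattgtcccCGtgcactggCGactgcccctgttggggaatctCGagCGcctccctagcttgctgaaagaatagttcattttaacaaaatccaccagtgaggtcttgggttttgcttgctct
Both Cmah windows held 3 CG, and the St6gal1 windows 7 and 10, against a median of 7 over 32851 windows of the same length, of which 94.6% held at least 1. The C1galt1 window, placed at a start 382 bases from that of its transcript, held 52, more than 99.4% of all windows. The St3gal4 window held 31, another St6gal1 window 6, and those of Mgat5, Cmas, Gcnt1 and St3gal6 from 2 to 20. Methylation was not measured here, and a CG in a window is not a binding site.

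The PNA ligand begins with C1galt1, the core 1 synthase. It was at 82.1 and 129 CPM in WT, 125 and 141 CPM in HET, and 77.5 to 112 CPM (median 96.75) in KO. Both HET libraries were above every KO library, while 1 WT library lay among KO and the other among HET. HET over KO was 0.45 ± 0.18 (SE; unadjusted p = 0.0302, adjusted p = 0.443), and WT over KO 0.11 ± 0.19 (adjusted p = 0.999). St3gal2, which caps core 1, was also higher in both HET libraries than in any KO library, at 35.8 and 22.9 CPM in WT, 43.0 and 34.6 CPM in HET and 17.15 to 30.55 CPM (median 27.7) in KO. The log2 fold change of HET over KO was 0.62 ± 0.26 (unadjusted p = 0.0372, adjusted p = 0.463), and 0.53 ± 0.24 without KO replicate 6, the lowest library. Neither gene passed the threshold of 0.1. With the Y-linked level as a covariate, HET over KO was 0.33 for C1galt1 and 0.58 for St3gal2 (unadjusted p = 0.152 and 0.105).

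St3gal1, the other core 1 sialyltransferase, depended on 1 library. It was at 14.55 and 20.1 CPM in WT, 17.7 and 14.1 CPM in HET, and 12.5 to 45.5 CPM (median 19.1) in KO. Apart from KO replicate 6, every library lay between 12.5 and 23.7 CPM and the groups overlapped. WT over KO was -0.40 ± 0.43 on the log2 scale (SE; adjusted p = 0.999) and -0.08 ± 0.27 without KO replicate 6 (adjusted p = 0.996). Its ratio to C1galt1 in TPM, capping over synthesis, was 0.379 and 0.319 in WT, 0.328 and 0.230 in HET and 0.2655 to 0.943 (median 0.428) in KO. KO replicate 6 again stood alone, since the next highest ratio was 0.489.

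Gcnt1, the core 2 branching enzyme, was at 29.3 and 37.6 CPM in WT, 20.8 and 38.8 CPM in HET, and 25.3 to 53.1 CPM (median 35.6) in KO. The 2 HET libraries enclosed most of the others. For WT over KO the log2 fold change was -0.14 ± 0.28 (SE; adjusted p = 0.999). The TPM ratio of Gcnt1 to St3gal1, the alternative fates of core 1, ran from 0.663 to 1.60 over the 10 libraries and overlapped between all genotypes.

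The lactosamine sialyltransferases differed from each other. St3gal6 was at 20.1 and 29.7 CPM in WT, 20.1 and 22.4 CPM in HET, and 21.5 to 62.5 CPM (median 32.6) in KO. All KO libraries but replicate 1 were above both WT and HET libraries. For WT plus HET over KO the log2 fold change was -0.66 ± 0.26 (SE; unadjusted p = 0.024, adjusted p = 0.744), and -0.43 ± 0.19 without KO replicate 6 (unadjusted p = 0.0417, adjusted p = 0.818). HET over KO was -0.78 ± 0.34 (unadjusted p = 0.0441, adjusted p = 0.483). With the Y-linked level as a covariate it was -1.095 (unadjusted p = 0.00948, adjusted p = 0.304), and with a block for the replicate number -0.28. The excess of St3gal6 in KO replicate 6 lay in a 1918-base transcript, at 30.9 TPM against 5.70 to 22.2 TPM elsewhere.

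St3gal4 was near the floor of the set, at 4.78 and 3.18 CPM in WT, 1.85 and 2.64 CPM in HET and 1.13 to 3.12 CPM (median 2.06) in KO. Both WT libraries were above all others. The log2 fold change of WT over KO was 0.95 ± 0.55 (SE; adjusted p = 0.999), with an interval from -0.27 to 2.18. The TPM scale gave another picture, in which a 372-base fragment, ENSMUST00000217542, held 99.6% of the St3gal4 TPM of KO replicate 6 and 61.6% to 80.35% in KO replicates 2 to 5, against 31.0% and 48.9% in WT, 0% and 21.4% in HET and 0% in KO replicate 1. These shares rest on few reads: the fragment had 100 estimated counts in KO replicate 6 and at most 17.5 in any other library. That fragment shares 311 of its bases with the full-length form. KO replicate 6 was at 20.9 TPM, against 0.853 to 7.11 TPM elsewhere. With counts scaled by transcript length, the log2 fold change of WT over KO became -0.56 ± 0.96 (SE), and 0.33 ± 0.62 without KO replicate 6, an alternative added after the data were seen. For WT plus HET over KO it was -1.09 and -0.20.

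Mgat5, the N-glycan branching enzyme, had the lowest mean TPM of the 10 genes, and St3gal4 was above it in 8 of 10 libraries. The full-length form of St3gal4 alone averaged 1.40 TPM, less than Mgat5 at 1.86 TPM. Mgat5 was at 7.20 and 9.78 CPM in WT, 14.5 and 13.2 CPM in HET, and 4.19 to 20.1 CPM (median 11.2) in KO. WT was below HET without overlap, while KO covered both, with replicate 1 lowest and replicate 6 highest. The log2 fold change of WT over HET was -0.71 ± 0.54 (SE; adjusted p = 0.904). With the Y-linked level as a covariate it was -0.087 ± 0.70.

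Counted together, none of the 10 genes passed an adjusted p of 0.1 in any of the 4 comparisons by edgeR. The comparisons share libraries and are not independent. For WT against KO, 0 of 10 passed, against 0.00704% of 14203 genes, which was Zbtb38 alone, and 0 of 10 had an unadjusted p under 0.05, against 2.19%. The groups did not overlap for 1 of 10, St3gal4, against 6.58% of all genes. For WT plus HET against KO, 0 of 10 passed, against 0.00749% of 13347 genes, again Zbtb38, and 1 of 10, St3gal6, had an unadjusted p under 0.05, against 6.3%. That 1 became 0 without either HET library and 2 without WT replicate 2 or KO replicate 1. None was free of overlap, against 1.52%. For HET against KO, 0 of 10 passed, against 0.00697% of 14354 genes, which was Hnrnpll alone, named because it passed here and in WT against HET. Here 4 of 10 had an unadjusted p under 0.05, 2 higher and 2 lower in HET, against 10.2%. Those 4 became 0 without either HET library and 2 without KO replicate 3, 4 or 5. For 2 of 10 the groups did not overlap, against 13.9%. For WT against HET, 0 of 10 passed, against 0.00697% of genes, and 0 of 10 had an unadjusted p under 0.05, against 6.42%. Here 3 of 10 did not overlap, Cmah, St3gal4 and Mgat5, against 48% of all genes. DESeq2 also passed 0 of 10 in each comparison, and its unadjusted p was under 0.05 for 0, 1, 4 and 0 of them in the same order. Of all genes, DESeq2 passed 7, 25, 505 and 168.

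Directions were mixed too. The median log2 fold change of the 10 genes was 0.03 for WT over KO, 0.05 for WT plus HET over KO, 0.14 for HET over KO and 0.12 for WT over HET. Over all genes tested the medians were -0.01, -0.02, -0.07 and 0.01. The number higher in the first group was 5, 5, 6 and 6 of 10. These tests limit the genes to different degrees: for WT over KO the interval of Cmas ran from 0.879-fold to 1.39-fold, and that of St3gal4 from 0.8285-fold to 4.52-fold. A missed threshold does not show equal levels.

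**Figure D3:**
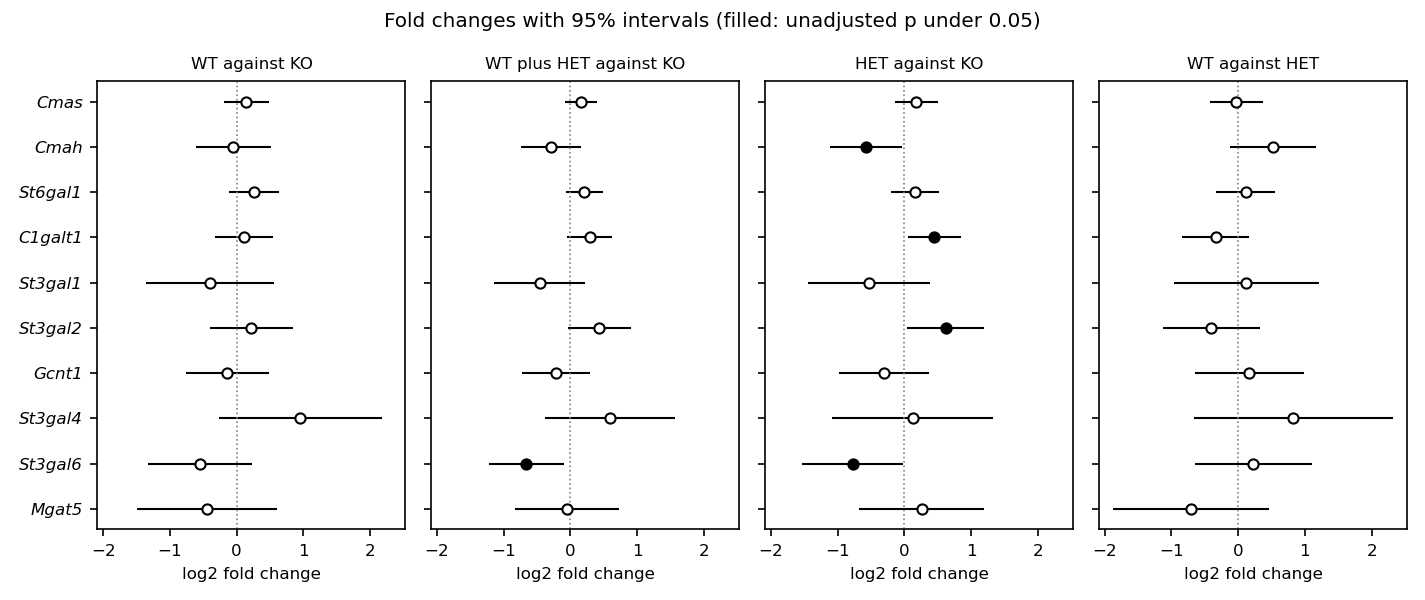
Log2 fold changes of the 10 genes in the 4 comparisons, first group over second, with 95% intervals as lines; filled points have an unadjusted p under 0.05. Most intervals cross 0, and the 5 filled points are St3gal6 for WT plus HET against KO (-0.66) and Cmah (-0.57), C1galt1 (0.45), St3gal2 (0.62) and St3gal6 (-0.78) for HET against KO.

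The 64 other genes of the surrounding pathways gave the setting. None passed the threshold in any comparison, of 57, 53, 57 and 57 tested, and the shares with an unadjusted p under 0.05 were 1.75%, 5.66%, 12.3% and 7.02%, against 2.19%, 6.3%, 10.2% and 6.42% of all genes. In sialic acid supply, 8 genes with Cmah and Cmas, the most abundant others were Nans (mean 50.3 TPM), which makes the sialic acid phosphate, Nanp (28.85 TPM), which removes the phosphate, Slc35a1 (25.9 TPM), the Golgi transporter, and Gne (19.45 TPM), the entry enzyme. None had an unadjusted p under 0.05. In the sialyltransferase family of 20 genes, the most abundant others were St6galnac4 (33.95 TPM), St3gal5 (13.4 TPM), St8sia4 (13.2 TPM) and St3gal3 (9.97 TPM), and none had an unadjusted p under 0.05. The same held for the 6 genes of sialic acid removal and acetylation, with Neu1 (45.6 TPM), Casd1 (12.9 to 25.8 TPM), Siae (7.24 TPM) and Neu3 (2.62 TPM) the most abundant.

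Genes that start or extend O-glycans were led by Galnt1 (83.4 TPM), Galnt12 (45.15 TPM), Galnt11 (21.85 TPM) and Galnt10 (11.4 TPM), which attach the first GalNAc. Galnt10 had a WT over KO log2 fold change of 0.66 (unadjusted p = 0.0374, adjusted p = 0.999), at 44.5 ± 6.14 CPM in WT (SD, n = 2) and 28.2 ± 7.58 CPM in KO. Galnt3 was at 0 in both HET libraries, and also in WT replicate 2 and KO replicate 1. It averaged 0.804 ± 0.689 CPM in KO, near the floor of detection. Among the N-glycan genes, Mgat1 (112 TPM), Mgat2 (74.9 TPM), Man1a (57.3 TPM) and Fut8 (57.2 TPM) were the most abundant. Man2a1, a Golgi mannosidase, was at 96.9 ± 10.6 CPM in HET and 62.5 ± 10.04 CPM in KO, with an unadjusted p of 0.00366 for HET against KO. Man2a2 was at 159 ± 0.466 CPM in HET and 100.4 ± 33.6 CPM in KO (unadjusted p = 0.0375), and B4galt4 was at 1.905 TPM or less in every library.

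Of the 9 receptors and carriers that bear or bind these sugars, Cd22 (503 TPM), the B cell lectin that binds α2,6-linked sialic acid, was the most abundant, and it was at 1237 ± 112 CPM in WT (SD, n = 2), 1173 ± 58.3 CPM in HET and 1055 ± 120.0 CPM in KO. Ptprc (443 TPM), Siglecg (289.9 TPM) and Lgals9 (97.8 TPM) followed. Selplg, the selectin ligand, was lowest in HET at 19.9 ± 2.63 CPM, against 54.1 ± 6.28 CPM in WT and 46.3 ± 19.4 CPM in KO (unadjusted p = 0.00654 for WT against HET). Lgals9 was also lower in HET, at 54.6 ± 11.2 CPM against 110.2 ± 48.9 CPM in KO (unadjusted p = 0.0211), and Ptprc was at 1137 ± 13.7 CPM in HET against 919.6 ± 77.5 CPM in KO (unadjusted p = 0.0196).

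The genes closest in pattern to 3 of the members were found from the root mean square difference of centred log2(CPM + 1) over the 10 libraries, among genes with a mean of at least 10 CPM. For Cmah they were Blcap (0.137), Themis2 (0.149) and Nrros (0.157), against a median of 0.450 over 8586 genes. For St6gal1 they were Vac14 (0.0861), Itgb1 (0.0893) and Snd1 (0.0961), against 0.328, and for St3gal1 they were Mbd5 (0.197), AC099860.1 (0.219) and Calhm2 (0.228), against 0.544. Themis2 reached 163.6 CPM in KO replicate 6 and Mbd5 18.5 CPM, the highest libraries for both, as for Cmah and St3gal1. Both were chosen for their pattern over these libraries, so this is not a separate observation.

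Across the members, KO replicates 1 and 6 held most extremes. KO replicate 6 was highest for 5 of the 10 genes and lowest for 1, against 20.1% and 22.9% of all genes tested for WT plus HET against KO. KO replicate 1 was lowest for 5 and highest for 0, against 16.3% and 19.2% of all genes. The SD within KO on the log2(CPM + 1) scale had a median of 0.391 for the 10 genes and 0.331 for all genes tested, and 0.300 and 0.289 without KO replicate 6.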

How the data were processed

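The authors quantified SMART-Seq v4 libraries with Salmon 0.9.1 (and list DESeq2 2.11.40.6, per the submitters' processing notes) on Gencode coding transcripts, and deposited, per transcript, an estimated count, TPM, and other values (transcript length and effective length). Estimated counts and TPM were summed per gene identifier over 64019 transcripts and 22380 genes, and counts were rounded. More than 1 identifier was found for 14 symbols, none of them a member or a gene of the lists. The members and lists were chosen with earlier results of these data known. edgeR 4.0.16 (R 4.3.3) tested counts with TMM scaling, its default expression filter, the quasi-likelihood test and Benjamini-Hochberg adjustment over all genes, at 0.1. WT against KO and WT plus HET against KO were fitted on their own libraries, and the contrasts with HET in 1 fit of 10 libraries. The scripts were tested on simulated data. Named genes were Zbtb38, the 10 members, the markers, and of each pathway list up to 4 others of highest mean TPM and up to 3 with the smallest unadjusted p under 0.05; pattern genes follow the stated rule. limma 3.58.1, DESeq2 1.42.0 and Python 3.11.15 served the alternatives and summaries. Positions are from Gencode annotation of the same genome build. Each library comes from a separate mouse as labelled.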

Additional observations from a re-analysis of the deposited data

Results flagged for a closer look

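In 22 groups of 6 KO values checked, 3 had a sample far from the others, where chance gives about 1 in 20. St3gal1 was at 45.5 CPM in KO replicate 6, and the nearest KO library was at 23.7 CPM. The ratio of St3gal1 to C1galt1 was 0.943 in the same library, against 0.489 in the nearest, and both flags rest on that 1 library. The summed myeloid markers reached 931 TPM in KO replicate 4, of which Lyz2 made up 693.6 TPM, against 272 TPM in the nearest. The part of these cells in the levels of the 10 genes was not tested.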

How the results depend on the processing

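Over 350 log2 fold changes of the 10 genes recomputed under other settings and 380 with 1 library left out, 23 and 19 changed sign and 1 moved past the threshold; no changed sign had passed it. That 1 was Cmah for WT against HET when only those 4 libraries were fitted. There 1 of the 10 genes had an adjusted p under 0.1 and 1 of the 10 an unadjusted p under 0.05. Zbtb38 passed there too (0.50, adjusted p = 0.0877), as did 523 of all genes. The spread there rests on 4 libraries. Below, counts of genes with an unadjusted p under 0.05 are of the 10 genes only.

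On the log2 scale and in the order of the settings, limma on log2(TPM + 1) and on log2(TPM + 0.1) gave 1.34 and 1.37 for Zbtb38, 0.11 and 0.12 for Cmah and 0.034 and 0.039 for Gcnt1 in WT against KO. In WT plus HET against KO they gave 1.16 and 1.19 for Zbtb38, -0.44 and -0.47 for St3gal4, 0.020 and 0.040 for Mgat5, and 0 genes with an unadjusted p under 0.05. Counts scaled by transcript length gave 1.20 and 1.04 for Zbtb38 and -0.56 and -1.09 for St3gal4 in these comparisons. Zbtb38 missed the threshold in all of them; the causes were not tested. Leaving out KO replicate 6 as well, chosen after the data were seen, WT against KO was 1.13 for Zbtb38, 0.099 for Cmah and 0.011 for Gcnt1; WT plus HET against KO was 0.97 for Zbtb38, -0.20 for St3gal4 and 0.11 for Mgat5, with 0 genes at an unadjusted p under 0.05, and Zbtb38 passed in neither. In HET against KO, Zbtb38 passed with DESeq2 (1.82) and with no filter on low counts (1.82).

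With the Y-linked level as a covariate, added after the data were seen, WT against KO was 2.17 for Zbtb38 (no longer passing), 0.18 for Cmah and 0.037 for St3gal1; HET against KO was -0.090 for St3gal4 and -0.039 for Mgat5, with 2 genes at an unadjusted p under 0.05; and WT against HET was -0.10 for St6gal1, with 1 such gene. Other values moved without changing sign, in WT against HET to 0.95 for St3gal1, 0.88 for St3gal6, -0.087 for Mgat5 and 0.17 for Zbtb38, and in HET against KO to -0.92 for St3gal1. The cause was not tested.

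Samples with the same replicate number deviated together by correlations of -0.00797 to 0.127. WT and HET hold 2 libraries each, whose deviations from their group mean mirror each other. These few pairs therefore cannot decide whether the numbers mark a pairing, and the labels give none. With the replicate block, WT against KO was 2.12 for Zbtb38 (adjusted p = 0.111), 0.30 for Cmah and 0.27 for Mgat5, and WT plus HET against KO was 1.86, 0.051 and 0.62. St3gal6 was -0.078 and -0.17 in these, and -0.28 in HET against KO. The block left 1 gene with an unadjusted p under 0.05 in HET against KO and 1 in WT against HET. All genes passing were 6, 0, 4 and 66 in the 4 comparisons, against 1 each without the block.

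Leaving out 1 library at a time, Zbtb38 ranged from 2.19 to 2.49 in WT against KO and lost the call without WT replicate 1 or 2 or KO replicate 1, 3, 4 or 5; it ranged from 1.70 to 2.00 in HET against KO, passing without KO replicate 2 or 6. In WT against KO, Cmah ranged from -0.15 to 0.092, St3gal2 from -0.14 to 0.51, Gcnt1 from -0.33 to 0.030 and C1galt1 from -0.25 to 0.40. Mgat5 ranged from -0.22 to 0.18 in WT plus HET against KO. In HET against KO, Gcnt1 ranged from -0.82 to 0.077 and St3gal4 from -0.15 to 0.36. In WT against HET, St6gal1 ranged from -0.044 to 0.25, St3gal1 from -0.13 to 0.33, St3gal6 from -0.084 to 0.48, Gcnt1 from -0.22 to 0.69 and Cmas from -0.17 to 0.12. Genes with an unadjusted p under 0.05 numbered 0 to 2 in WT plus HET against KO, 0 to 4 in HET against KO and 0 to 1 in WT against HET. A group left with 1 library is assumed to vary like the others.

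Under CPM, differences between groups in the log2 of the 3 ratios moved by less than the spread between libraries. The same held for Cmah to St6gal1 and St3gal1 to C1galt1 with any library left out. Gcnt1 to St3gal1 moved further, from -0.063 to between -0.68 and 0.56 for HET over KO. For WT over HET it ranged from -0.36 to 0.88. A small difference in Cmah to St6gal1 (WT over KO, without WT replicate 1) changed sign, as did differences in Gcnt1 to St3gal1. Depth limits St3gal4 most, at 1.13 to 4.78 CPM. The planned comparison of protein sequences was not run.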
